A study of Canis lupus familiaris with 6 samples.

Results

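Transcripts of 10 heat shock chaperones of the cytosol and the mitochondrion were followed in MDCK cells, a polarised epithelial line from dog kidney, after knockdown of the phosphatase PRL1. The 10 genes were chosen by name as HSPA8, HSPA4, HSPH1, HSP90AA1, HSP90AB1, DNAJA1, DNAJB1, HSPB1, HSPD1 and HSPE1, and each symbol matched 1 of the 41401 rows of the deposited tables. The choice was made with earlier results of these data known. The study set PRL1 siRNA against control siRNA in wild-type cells and in clones labelled as lacking PRL2, in work on cell death through NF-κB when magnesium inside cells falls. The groups were cells labelled PRL2-/-; PRL1+/- and given PRL1 siRNA (2 libraries, from clone 1 and clone 2), the same clones given control siRNA (2 libraries), wild-type cells given PRL1 siRNA (1 library) and wild-type cells given control siRNA (1 library). Cells of every group were transfected more than once, with RNA extracted 18 h after the second round. Each mutant line is a single clone, and the labels do not say how its alleles were disrupted. Nothing in the labels says that the libraries came from repeated cultures. The p-values therefore rest on the spread between the lines, with 1 library per line and siRNA. Each gene's spread, and so each standard error (SE), was drawn partly from that of all genes tested.

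Heat shock proteins keep other proteins folded. In the cytosol, J-domain proteins such as DNAJA1 and DNAJB1 bring unfolded chains to the HSP70 protein HSPA8, the HSP110 proteins HSPA4 and HSPH1 release its nucleotide so that the cycle can go on, and HSP90 receives late folding intermediates, among them many kinases and hormone receptors. Small heat shock proteins such as HSPB1 hold unfolding proteins without using ATP, and in the mitochondrial matrix HSPD1 and HSPE1 form the barrel and the lid of a folding chamber. Many of these genes are known targets of the transcription factor HSF1, and most are also active in unstressed cells.

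The libraries had 22961 to 23964 symbols above 0 FPKM (fragments scaled to transcript length and library size), and relative depth, read from low values, lay between 0.766 and 1 of that of the wild-type control library. All 9 epithelial markers (CDH1, EPCAM, KRT8, KRT18, CDH16, PAX8, PAX2, TJP1 and CLDN4) averaged at least 1 FPKM, with summed levels of 1242 to 1834 FPKM under PRL1 siRNA and 1263 to 1922 FPKM under control siRNA. After knockdown these markers moved both ways. CDH16 rose by 0.82 and PAX8 by 0.57 log2 units, while KRT18 fell by 0.22, CDH1 by 0.16, EPCAM by 0.14 and TJP1 by 0.12 log2 units. CLDN4, PAX2 and KRT8 did not pass, at -0.23, -0.06 and -0.01 log2 units. The part of these shifts in the chaperone results was not tested. Summed markers of leukocytes did not exceed 2.55 FPKM under PRL1 siRNA or 2.30 FPKM under control siRNA, with PTPRC and CD3E listed at 0 throughout, and those of fibroblasts and endothelium did not exceed 0.474 and 1.20 FPKM under PRL1 siRNA or 0.327 and 1.25 FPKM under control siRNA. PTP4A1, which encodes PRL1, was at 37.8 FPKM with PRL1 siRNA and 61.7 FPKM with control siRNA in clone 1, at 37.8 and 69.9 FPKM in clone 2, and at 33.1 and 63.5 FPKM in wild type. The targeted transcript was thus lower in every knockdown library than in the control library of its line, while its control levels in the clones labelled PRL1+/- were near that of wild type. PTP4A2, which encodes PRL2, was also present in the clones labelled PRL2-/-. Under PRL1 siRNA it was at 69.1 FPKM in clone 1 and 48.3 FPKM in clone 2 against 59.0 FPKM in wild type, and under control siRNA at 80.4 and 56.7 FPKM in the clones against 72.7 FPKM in wild type. Since the lesion is not described, these gene-level values do not check the genotype labels, and results on the clones are given by label.

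After PRL1 knockdown the chaperones moved both ways, as did the genes tested as a whole. Transcripts of both cytosolic HSP90 genes, of the HSP110 gene HSPH1 and of the mitochondrial chaperonin HSPD1 fell in all 3 lines, while the small heat shock protein HSPB1 rose to between 1.47 and 2.47 times its control level. The other 5 genes, HSPA8, HSPA4, DNAJA1, DNAJB1 and HSPE1, did not pass the test, though the identity of the row named DNAJA1 is uncertain, as set out below. In limma fitted to log2(FPKM + 1) of 12125 genes with the line as a term, which pairs the knockdown and control libraries of a line, 1 of the 10 genes was called higher, beside 17.6% of all genes tested, and 4 were called lower, beside 21.7% of all genes tested (Benjamini-Hochberg adjusted p under 0.05). The median change of the 10 was -0.02 log2 units, against -0.01 over all genes. The fit rests on 3 lines and 2 residual degrees of freedom, and fewer transcripts per cell cannot be told apart here from a smaller share of the cells making them.

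**Figure D1:**
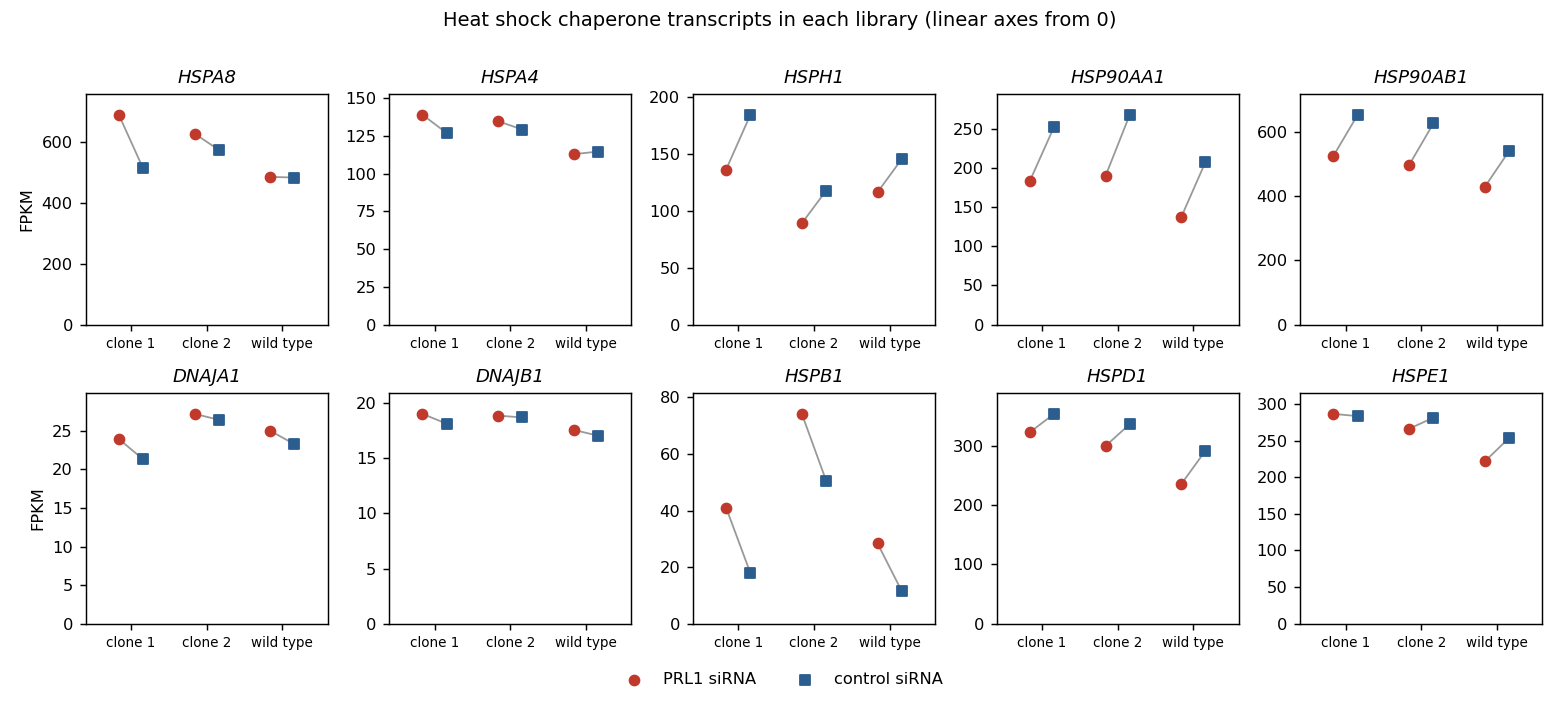
FPKM of each of the 10 chaperone genes (y axes, linear, from 0) in the 6 libraries, by line on the x axis, with the PRL1 siRNA library of a line as a red circle joined to its control siRNA library as a blue square. HSP90AA1, HSP90AB1, HSPH1 and HSPD1 are lower with PRL1 siRNA in each line, and HSPB1 is higher in each line.

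HSP90AA1, the more stress-responsive of the cytosolic HSP90 genes, had the largest fall of the 10. It was at 183 FPKM with PRL1 siRNA against 252 FPKM with control siRNA in clone 1, at 190 against 268 FPKM in clone 2 and at 137 against 208 FPKM in wild type. The 3 knockdown libraries all lay below the 3 control libraries, with no overlap. The share of all genes separated in this way was not counted. The fall was 27.4% in clone 1, 29.2% in clone 2 and 33.9% in wild type, and the change over the lines was -0.52 ± 0.04 log2 units (SE, n = 3 lines, limma adjusted p = 0.00156).

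HSP90AB1, the constitutive HSP90 gene, changed by nearly the same amount in each line. Its levels with PRL1 siRNA were 525, 496 and 428 FPKM in clone 1, clone 2 and wild type, against 652, 625 and 540 FPKM with control siRNA. The library groups again did not overlap, a separation whose share over all genes was not counted. The falls of 19.6%, 20.6% and 20.6% gave a change of -0.33 ± 0.03 log2 units (SE, n = 3 lines, limma adjusted p = 0.00198). The FPKM of both HSP90 genes together was 708 with PRL1 siRNA and 905 with control siRNA in clone 1, 686 and 893 in clone 2, and 566 and 747 in wild type. Since HSP90AA1 fell by more in each line, the ratio of its FPKM to that of HSP90AB1 was also lower after knockdown, at 0.349 with PRL1 siRNA and 0.387 with control siRNA in clone 1, 0.382 and 0.429 in clone 2, and 0.320 and 0.385 in wild type. Both HSP90 falls passed in each of the 13 alternative fits of this comparison, with adjusted p from 0.000574 to 0.0436 for HSP90AA1 and from 0.000865 to 0.0452 for HSP90AB1.

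In the HSP70 system the changes did not share a direction. HSPA8, the constitutive HSP70 and the most abundant of the 10 genes by mean FPKM, was at 690 FPKM with PRL1 siRNA against 514 FPKM with control siRNA in clone 1, at 628 against 574 FPKM in clone 2 and at 485 against 483 FPKM in wild type. The library groups overlapped: it was higher by 34.3% in clone 1 but by 0.447% in wild type, and the change over the lines of 0.19 ± 0.08 log2 units (SE, n = 3 lines) did not pass (limma adjusted p = 0.117, 95% interval from -0.01 to 0.39). HSPA4, an HSP110 that exchanges nucleotide on HSP70, was at 139 FPKM with PRL1 siRNA and 127 FPKM with control siRNA in clone 1, 135 and 129 FPKM in clone 2, and 113 and 115 FPKM in wild type. Its change was 0.06 ± 0.04 log2 units and did not pass either (limma adjusted p = 0.314, 95% interval from -0.05 to 0.16).

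HSPH1, the other HSP110, fell in every line although the lines differed in their starting level. It was at 136 FPKM with PRL1 siRNA against 184 FPKM with control siRNA in clone 1, at 88.9 against 117 FPKM in clone 2 and at 116 against 145 FPKM in wild type. The library groups overlapped, because the knockdown library of clone 1 exceeded the control library of clone 2, but within each line the knockdown library was lower. The change was -0.38 ± 0.04 log2 units (SE, n = 3 lines, limma adjusted p = 0.00207), and the call was lost without pairing by line (adjusted p = 0.293). The ratio of HSPH1 to HSPA8 FPKM was 0.197 with PRL1 siRNA and 0.358 with control siRNA in clone 1, 0.142 and 0.205 in clone 2, and 0.239 and 0.301 in wild type.

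The rows named for J-domain genes had the lowest mean FPKM of the 10, and neither passed. For DNAJA1 this holds for the row of that name, whose identity is taken up in the next paragraph. DNAJB1, an HSF1 target that delivers clients to HSP70, was at 19.0 FPKM with PRL1 siRNA and 18.1 FPKM with control siRNA in clone 1, at 18.9 and 18.7 FPKM in clone 2 and at 17.6 and 17.0 FPKM in wild type. Its highest library was 1.12 times its lowest, the narrowest range of the 10 genes, and its change of 0.04 ± 0.04 log2 units did not pass (limma adjusted p = 0.434, 95% interval from -0.05 to 0.13). DNAJA1, a farnesylated J-domain protein, was at 23.9 FPKM with PRL1 siRNA and 21.3 FPKM with control siRNA in clone 1, at 27.2 and 26.4 FPKM in clone 2 and at 25.0 and 23.3 FPKM in wild type. The change was 0.10 ± 0.04 log2 units (limma adjusted p = 0.106, 95% interval from -0.003 to 0.20), and it passed after quantile normalization of the libraries (adjusted p = 0.0426).

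The identity of the row named DNAJA1 needs a caution. In the RefSeq gene table used for names, of assembly UU_Cfam_GSD_1.0, that symbol belongs to a protein-coding locus inside the span of CDC45, a replication gene that fell by 0.34 ± 0.06 log2 units (limma adjusted p = 0.00977), and the strand setting of the authors' counting is not given. In the human genome DNAJA1 lies between APTX and SMU1, and the protein-coding locus between APTX and SMU1 in the dog table, LOC119863874, carries no name. That locus, looked up after the values were seen, was at 17.7 FPKM with PRL1 siRNA and 14.1 FPKM with control siRNA in clone 1, at 18.5 and 14.0 FPKM in clone 2 and at 17.2 and 15.0 FPKM in wild type (0.29 ± 0.05 log2 units, limma adjusted p = 0.00886).

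HSPB1, known as HSP27, rose and had the widest range of the 10 genes, its highest library at 6.47 times its lowest. It was at 40.9 FPKM with PRL1 siRNA against 17.9 FPKM with control siRNA in clone 1, at 74.1 against 50.6 FPKM in clone 2 and at 28.3 against 11.5 FPKM in wild type. Within each line the knockdown library was higher, by 2.29 times in clone 1, 1.47 times in clone 2 and 2.47 times in wild type, yet the control library of clone 2 exceeded the knockdown libraries of clone 1 and wild type. The change over the lines was 0.98 ± 0.13 log2 units (SE, n = 3 lines, limma adjusted p = 0.00486). That SE is drawn partly from the spread of all genes tested and is not the plain SE of the line values. The changes by line were 1.15 log2 units in clone 1, 0.54 in clone 2 and 1.24 in wild type. The call was lost without pairing by line (adjusted p = 0.181) and when genes of low level were not filtered (adjusted p = 0.0957).

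Of the mitochondrial chaperonin genes, HSPD1 fell and HSPE1 did not pass. HSPD1, which encodes HSP60, was at 323 FPKM with PRL1 siRNA against 354 FPKM with control siRNA in clone 1, at 300.0 against 337 FPKM in clone 2 and at 236 against 292 FPKM in wild type. The library groups overlapped, since the clone knockdown libraries exceeded the wild-type control library, but each knockdown library was below its own control. The falls of 8.76%, 11.0% and 19.3% gave -0.20 ± 0.04 log2 units (SE, n = 3 lines, limma adjusted p = 0.0186). This call was lost when any 1 of the 4 clone libraries was left out (adjusted p from 0.0615 to 0.0677), without pairing by line (0.0805) and without a filter (0.136). HSPE1, which encodes the cochaperonin HSP10, was at 287 FPKM with PRL1 siRNA and 284 FPKM with control siRNA in clone 1, at 266 and 281 FPKM in clone 2 and at 222 and 254 FPKM in wild type, and its change of -0.09 ± 0.05 log2 units did not pass (limma adjusted p = 0.201, 95% interval from -0.20 to 0.03). HSPD1 and HSPE1 are neighbours in the RefSeq table and their spans overlap. The ratio of HSPD1 to HSPE1 FPKM was 1.13 with PRL1 siRNA and 1.25 with control siRNA in clone 1, 1.13 and 1.20 in clone 2, and 1.06 and 1.15 in wild type.

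**Figure D2:**
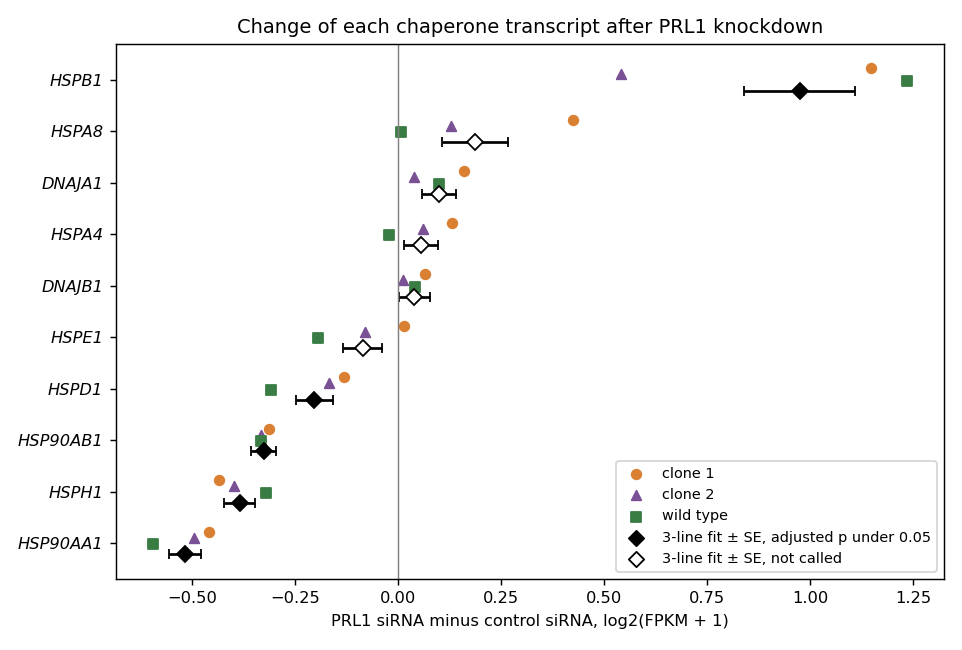
PRL1 siRNA minus control siRNA on the log2(FPKM + 1) scale (x axis) for each chaperone gene (y axis), with 1 coloured marker per line and a black diamond for the 3-line limma estimate with its SE. Filled diamonds passed at an adjusted p under 0.05: HSPB1 at 0.98, HSPD1 at -0.20, HSP90AB1 at -0.33, HSPH1 at -0.38 and HSP90AA1 at -0.52.

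The direction within lines was shared for 8 of the 10 genes. DNAJA1, DNAJB1, HSPA8 and HSPB1 were higher with PRL1 siRNA in every one of the 3 lines, beside 31.6% of all genes, and HSP90AA1, HSP90AB1, HSPD1 and HSPH1 were lower in every one of the 3 lines, beside 35.8% of all genes. HSPA4 was lower in wild type and higher in both clones, and HSPE1 was higher in clone 1 and lower in clone 2 and wild type. Few of these differences were large. At a mark of 1.5-fold on the log2(FPKM + 1) scale, HSPB1 was higher in clone 1 (beside 2.71% of all genes) and in wild type (beside 2.09%), and 0 of the 10 genes were higher in clone 2 (beside 2.14%). HSP90AA1 was at least 1.5-fold lower in wild type (beside 1.59% of all genes), and 0 of the 10 were in clone 1 (beside 1.89%) or clone 2 (beside 2.08%). Summed over the 10 genes, FPKM made up 0.510% of the library total with PRL1 siRNA and 0.514% with control siRNA in clone 1, 0.480% and 0.511% in clone 2, and 0.414% and 0.477% in wild type.

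In the clones alone the calls depended on pairing. Without the clone as a term, limma called 0 genes of 12125 (0%), with 2575 genes and 3 of the 10 chaperones at an unadjusted p under 0.05. Libraries of one number come from the same clone, and with the clone as a replicate block HSPB1 was again called higher (1 of 10, beside 14.3% of all genes), and HSP90AA1, HSP90AB1, HSPD1 and HSPH1 were again called lower (4 of 10, beside 19% of all genes). In that paired fit, which shares its 4 libraries with the 3-line fit and has 1 residual degree of freedom, HSP90AA1 changed by -0.48 ± 0.03 log2 units (adjusted p = 0.00673; 0.106 without pairing), HSPH1 by -0.42 ± 0.03 (adjusted p = 0.00720; 0.504 without pairing) and HSPB1 by 0.85 ± 0.15 (adjusted p = 0.0234; 0.472 without pairing).

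The knockdown effect in the clones was also set against that in wild type. Without pairing by clone, limma called 0 genes (0%; 136 at an unadjusted p under 0.05), and 0 of the 10 chaperones had an unadjusted p under 0.05. With the line as a replicate block, a fit added after the unpaired values were seen and with 1 residual degree of freedom, 1 gene was called (0.00825% of all genes; 1228 at an unadjusted p under 0.05) and 0 of the 10 chaperones, of which HSPD1 alone had an unadjusted p under 0.05. For HSPB1 the estimate, clones minus wild type, was -0.39 log2 units, with a 95% interval from -1.10 to 0.32 with pairing (adjusted p = 0.616) and from -3.28 to 2.50 without. The clones were unlike, with HSPB1 knockdown changes of 1.15 in clone 1 and 0.54 in clone 2 against 1.24 in wild type. For HSPH1 the difference was -0.10 log2 units, with an interval from -0.25 to 0.06 with pairing and from -1.64 to 1.45 without. For HSP90AB1 it was 0.01 log2 units, with an interval from -0.14 to 0.16 with pairing and from -0.30 to 0.32 without. HSPA8 had the largest positive difference of the 10, 0.27 ± 0.14 log2 units with pairing (adjusted p = 0.541, interval from -0.10 to 0.64), and HSPD1 was at 0.16 ± 0.06 (adjusted p = 0.485, interval from 0.01 to 0.31). The HSPA8 knockdown change was 0.42 in clone 1 and 0.13 in clone 2 against 0.01 in wild type.

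The clones were then compared with wild type under the same siRNA. Of the 10 chaperones, 8 were higher in both clones than in wild type under both siRNAs (beside 31.6% of all genes) and 0 were lower (beside 19.9%). Their differences were mostly modest, and none passed. Limma called 0 genes under PRL1 siRNA (0%; 1798 genes and 6 of the 10 chaperones at an unadjusted p under 0.05) and 0 genes under control siRNA (0%; 1632 genes and 3 of the 10). With a single wild-type library per siRNA, a difference between the lines as grown and a difference by genotype cannot be told apart, and the control libraries used here are those of the knockdown comparison. After quantile normalization 7 of the 10 remained higher in both clones, with HSPA8 dropping out (beside 25.5% of all genes).

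HSP90AA1 stood at 183 and 190 FPKM in clone 1 and clone 2 against 137 FPKM in wild type under PRL1 siRNA, and at 252 and 268 FPKM against 208 FPKM under control siRNA. The difference was 0.44 ± 0.08 log2 units under PRL1 siRNA (limma adjusted p = 0.223) and 0.32 ± 0.08 under control siRNA (adjusted p = 0.291). HSPA8 differed from wild type by 0.44 ± 0.11 log2 units under PRL1 siRNA (adjusted p = 0.272), with both clones above wild type, and by 0.17 ± 0.11 under control siRNA (adjusted p = 0.582). HSPD1 differed by 0.40 ± 0.08 log2 units under PRL1 siRNA (adjusted p = 0.242) and by 0.24 ± 0.08 under control siRNA (adjusted p = 0.363), and HSPE1 by 0.32 ± 0.08 (adjusted p = 0.263) and 0.15 ± 0.08 (adjusted p = 0.478).

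HSPB1 and HSPH1 separated the clones from each other. HSPB1 under PRL1 siRNA was 1.44 times the wild-type level in clone 1 and 2.62 times in clone 2, and under control siRNA 1.56 times in clone 1 and 4.41 times in clone 2. HSPH1 lay on opposite sides of wild type, at 1.17 times its level in clone 1 and 0.765 times in clone 2 under PRL1 siRNA, and at 1.27 times in clone 1 and 0.809 times in clone 2 under control siRNA. DNAJA1 was also split, at 0.957 times the wild-type level in clone 1 and 1.09 times in clone 2 under PRL1 siRNA, and at 0.916 times in clone 1 and 1.14 times in clone 2 under control siRNA.

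**Figure D3:**
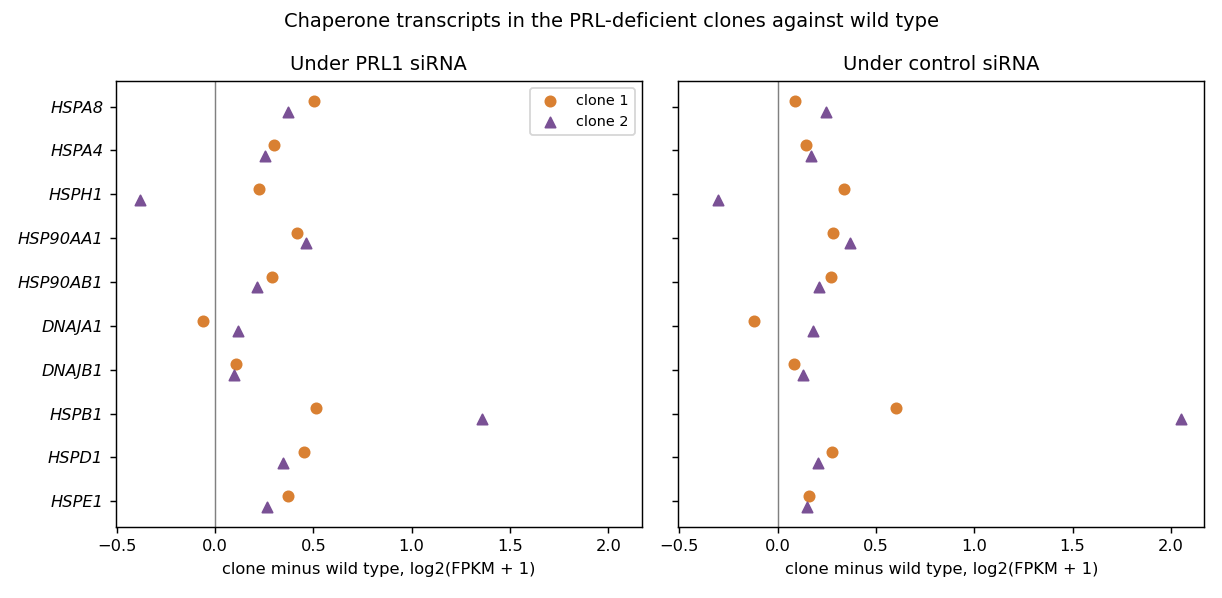
Clone minus wild type on the log2(FPKM + 1) scale (x axes) for each chaperone gene (y axis), under PRL1 siRNA in the left panel and control siRNA in the right panel, with 1 marker per clone. Of the 10 genes, 8 lie right of 0 for both clones in both panels, HSPH1 and DNAJA1 straddle 0, and HSPB1 in clone 2 is farthest out.

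The rest of the chaperone network was read from 10 lists of 98 other genes. Outside the endoplasmic reticulum list, 82 genes were listed, 78 had a row and 71 averaged 1 FPKM or more. Of these 71, 25 fell (35.2%, beside 21.7% of all genes) and 8 rose (11.3%, beside 17.6%), with a median of -0.07 log2 units against -0.01 over all genes. The lists share the lines and libraries of the 10 chaperones. They were chosen by function, but with earlier results of these data known, so these shares are not an independent check.

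The cytosolic chaperonin TRiC, the ring that folds actin and tubulin, was lower as a whole. All 8 subunit genes were lower in all 3 lines (beside 35.8% of all genes), with a median of -0.15 log2 units. By the test 7 fell (beside 21.7% of all genes), and CCT6A did not pass (limma adjusted p = 0.0573). CCT8 led with 191 FPKM with PRL1 siRNA against 246 FPKM with control siRNA in clone 1, 182 against 237 FPKM in clone 2 and 161 against 206 FPKM in wild type (-0.37 ± 0.03 log2 units, limma adjusted p = 0.00172), followed by CCT4 (-0.24 ± 0.03, adjusted p = 0.00499). Of 6 prefoldin genes, which hand clients to TRiC, VBP1 fell (-0.17 ± 0.04, adjusted p = 0.0160) and 5 did not pass, PFDN1 among them at 0.24 ± 0.10 (adjusted p = 0.0961). That fall was 16.7% of the list, beside 21.7% of all genes.

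HSP90 cochaperones divided between those that fell and those that did not pass. Of 11 genes 5 fell (beside 21.7% of all genes), CDC37, PTGES3, CHORDC1, SUGT1 and PPP5C, and 0 rose (beside 17.6%). The median was -0.15 log2 units. CHORDC1, an HSP90-binding protein, was at 26.2 FPKM with PRL1 siRNA against 33.7 FPKM with control siRNA in clone 1, 23.6 against 31.9 FPKM in clone 2 and 21.6 against 29.3 FPKM in wild type (-0.40 ± 0.04 log2 units, limma adjusted p = 0.00199), and SUGT1, which acts with HSP90, changed by -0.27 ± 0.06 (adjusted p = 0.0158).

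HSP70 partners moved both ways. Of 8 genes of nucleotide exchange and triage, BAG3 and STUB1 rose (25%, beside 17.6% of all genes) and BAG5 fell (12.5%, beside 21.7%). BAG3 and STUB1 send HSP70 clients to autophagy and to ubiquitin. BAG3 changed by 0.24 ± 0.05 log2 units (limma adjusted p = 0.0111) and BAG5 by -0.37 ± 0.04 (adjusted p = 0.00203). Of 10 other cytosolic J-domain genes, 1 rose (beside 17.6% of all genes). This was DNAJB6, which blocks aggregation of polyglutamine proteins, at 0.27 ± 0.05 (adjusted p = 0.0106). In that list 4 fell (beside 21.7% of all genes), led by the endosomal DNAJC13 (-0.30 ± 0.04, adjusted p = 0.00460). Of 4 other HSP70 and HSP110 genes, HSPA2 rose (0.18 ± 0.04, adjusted p = 0.0267), and HSPA13, which sits at microsomes, fell (-0.53 ± 0.05, adjusted p = 0.00188). Each was 25% of that list, beside 17.6% of all genes higher and 21.7% lower. The stress-inducible HSPA1A, HSPA1B, HSPA1L and HSPA6 were not matched by symbol and are not analysed here. A gene named HSP70, which RefSeq lists with the synonym HSPA1 and which was added after its values were seen, was at 3.32 FPKM with PRL1 siRNA against 2.16 FPKM with control siRNA in clone 1, 2.85 against 1.91 FPKM in clone 2 and 3.21 against 1.89 FPKM in wild type. It rose by 0.47 ± 0.06 log2 units (limma adjusted p = 0.00471), on a scale that understates changes at this low level.

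Of the other small heat shock proteins, 5 passed the filter, with a median of 0.18 log2 units. CRYAB and HSPB6 rose (beside 17.6% of all genes) and 0 fell (beside 21.7%). CRYAB, which encodes αB-crystallin, changed by 0.18 ± 0.05 log2 units (limma adjusted p = 0.0354) and HSPB6 by 0.19 ± 0.04 (adjusted p = 0.0139), while HSPB11, a ciliary transport protein despite its name, was at 0.19 ± 0.07 and did not pass (adjusted p = 0.0893). HSPB1 had the larger change of the small heat shock proteins measured, so the ratio of CRYAB to HSPB1 FPKM was 4.67 with PRL1 siRNA and 10.0 with control siRNA in clone 1, 2.86 and 3.78 in clone 2, and 5.96 and 11.9 in wild type. HSPB8 was at 60.7 against 68.9 FPKM in clone 1 and 47.0 against 56.6 FPKM in clone 2 but at 94.4 against 84.2 FPKM in wild type, PRL1 siRNA against control siRNA in each case, and did not pass (adjusted p = 0.412).

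Among 15 other mitochondrial chaperones and proteases 5 fell (beside 21.7% of all genes) and 1, SPG7, rose (beside 17.6%). The median was -0.08 log2 units. DNAJC19 is a J-domain protein of the inner membrane import motor. On the log2(FPKM + 1) scale it had the largest change of all chaperone genes measured outside the endoplasmic reticulum except HSPB1. It was at 59.7 FPKM with PRL1 siRNA against 91.0 FPKM with control siRNA in clone 1, 51.3 against 83.1 FPKM in clone 2 and 53.2 against 83.2 FPKM in wild type (-0.64 ± 0.04 log2 units, limma adjusted p = 0.00127). The protease subunit AFG3L2 changed by -0.37 ± 0.04 (adjusted p = 0.00199) and the mitochondrial HSP70 gene HSPA9 by -0.17 ± 0.05 (adjusted p = 0.0393).

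HSF1, the main transcription factor of the heat shock response, fell slightly. It was at 18.7 FPKM with PRL1 siRNA against 21.3 FPKM with control siRNA in clone 1, 18.7 against 22.1 FPKM in clone 2 and 17.4 against 19.3 FPKM in wild type (-0.18 ± 0.04 log2 units, limma adjusted p = 0.0177). HSF2 was the member of that list that rose (25%, beside 17.6% of all genes), and HSF4 did not pass (0.10 ± 0.06, adjusted p = 0.223).

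Chaperones of the endoplasmic reticulum changed by more than those of the cytosol and mitochondrion in median. Of 16 genes 13 fell (beside 21.7% of all genes) and 1, SIL1, rose (beside 17.6%), with a median of -0.44 log2 units. HSPA5, the HSP70 of that compartment, changed by -1.47 ± 0.08 log2 units and CRELD2 by -0.89 ± 0.06 (limma adjusted p = 0.00127 and 0.00129), against -0.52 for HSP90AA1, the deepest fall among the 10 chaperones described here. The difference between the lists was not tested.

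**Figure D4:**
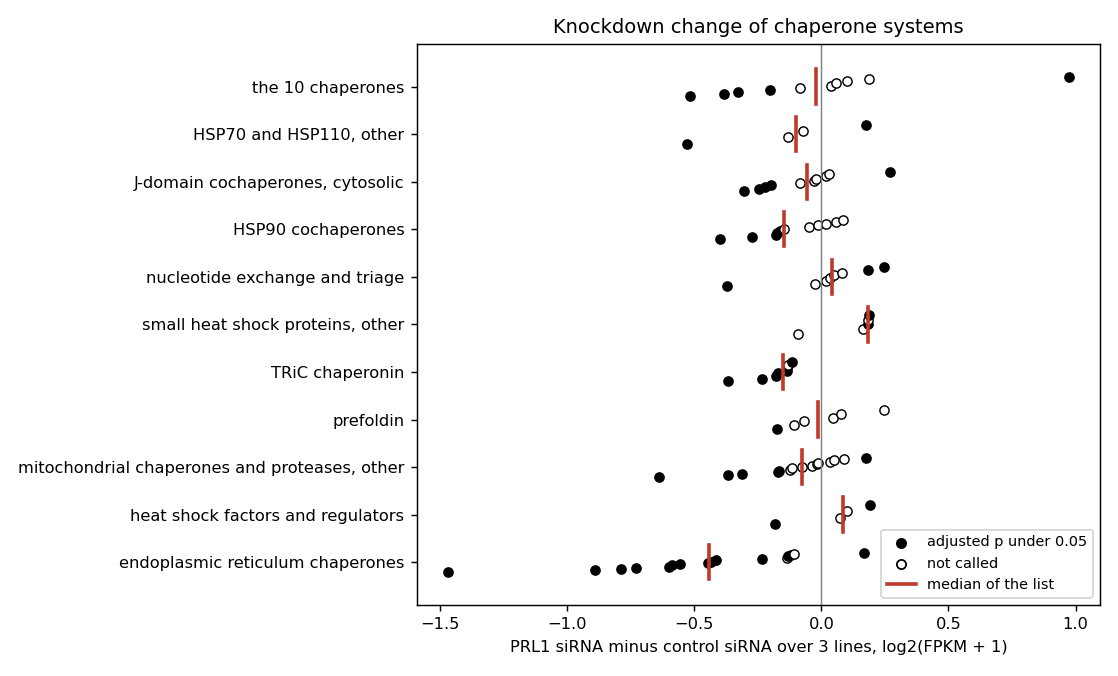
Change after PRL1 knockdown over the 3 lines on the log2(FPKM + 1) scale (x axis), 1 point per gene, for the 10 chaperones and 10 lists of other chaperone genes (y axis), with filled points for an adjusted p under 0.05 and a red line at each list's median. All TRiC genes lie left of 0, and the endoplasmic reticulum list has the lowest median, at -0.44.

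The profile nearest to that of HSPB1, the gene of the 10 with the largest change, was sought among 8354 other named genes averaging 5 FPKM or more. The measure was the root mean square distance over the 6 libraries between log2(FPKM + 1) values centred on each gene's mean, where the median gene lay at 0.88 log2 units. The nearest were A4GALT, which encodes a glycosyltransferase of globoside synthesis, at 0.27, SEMA7A, a membrane-anchored semaphorin, at 0.31 and ERAP2, an aminopeptidase that trims antigenic peptides, at 0.32. Like HSPB1, all 3 were highest in the knockdown library of clone 2 and lowest in the control library of wild type, a likeness that the choice by distance builds in. The measure mixes levels between lines with knockdown changes, so it does not show a shared response to PRL1 siRNA.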

How the data were processed

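Stranded mRNA libraries of 6 samples were analysed from the deposited FPKM values, 1 per gene symbol and library. FPKM were made by the authors, and per the submitters' processing notes HISAT2 2.1.0, Cufflinks 2.2.1 and Cuffdiff were used. Genome build, annotation and strandedness of counting: not given in the sources used here. FPKM hide fragment numbers, so absolute depth is unknown. Relative depth came from ratios of values below 0.1 FPKM, of which 28.3% to 31.4% lay within 0.01 log2 units of ratios of whole numbers up to 4, against 2.89% to 3.09% at other offsets. Most values are not whole multiples, so no count model was run.

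Linear models were fitted with limma (version 3.58.1, under R version 4.3.3) to log2(FPKM + 1), with an intensity trend, for 12125 genes averaging 1 FPKM or more, and the Benjamini-Hochberg method over all of them at 0.05. All 10 chaperones passed that filter. Knockdown was fitted with the line as a term, since each line gave 1 library per siRNA. In that fit limma set 3.58 prior degrees of freedom, drawn from the spread of all genes tested, beside the 2 residual ones. The fits of 4 groups had no clone term and took the spread of wild type, with 1 library per siRNA, to equal that between clones. Same-clone libraries deviated together from their group means (r = 0.595 across genes), so the paired fit is given beside the unpaired one for knockdown in the clones and for its difference from wild type. The words rose and fell are kept for genes called in the 3-line fit. The 3-line fit was also run on simulated data with independent noise, in which few genes changed. That setting differs from these data, so the run does not show how reliable the calls are here. Of 41401 symbols, 38797 matched RefSeq names. The 10 genes and the lists were chosen with earlier results of these data known. Named beside them were the siRNA target, the epithelial markers, HSF1, HSPA5, up to 2 genes of each list with the largest change among those averaging 5 FPKM or more, and genes of the nearest profile. CDC37, PTGES3, PPP5C, STUB1, SPG7, HSF2, SIL1, CRYAB, HSPB8, HSPA9, PTP4A2, CDC45, HSP70 and LOC119863874 were named after their values were seen.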

Additional observations from a re-analysis of the deposited data

How the results depend on the processing

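Over the 3 lines, all 10 chaperones kept their direction in all 13 alternative fits, but much of this was fixed in advance. Dropping the line term or the trend, or changing the filter, leaves each estimate as it was. With the line as a term, leaving out either library of a line gives the same estimate, from the other lines alone. Such a fit cannot turn the sign of a gene that moved one way in all 3 lines. Without pairing by line (no replicate block) the genes called were 1710 instead of 4762, and of the chaperones 0 were called higher and 2 lower (HSP90AA1 and HSP90AB1). With no filter 1179 genes and 0 higher chaperones were called, and after quantile normalization 2 were called higher. Leaving out 1 library gave 1721 to 4095 genes. For clone 1 this was 1721 lacking its knockdown library and 1723 lacking its control, and for clone 2 it was 2436 and 2450 likewise; these fits have fewer samples. In the clones, the replicate block gave 4037 genes, 1 chaperone higher and 4 lower, instead of 0 each, and for the difference of knockdown effects between clones and wild type it gave 1 gene instead of 0. Median-ratio scaling left 0 chaperones at least 1.5-fold lower in wild type. With no filter, calls numbered 240 for clones against wild type under PRL1 siRNA, 165 under control siRNA and 157 for the difference of knockdown effects, and with no intensity trend 4, for control siRNA and likewise for that difference, instead of 0.

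Sign changes touched values that never passed. For clones against wild type under PRL1 siRNA, DNAJA1 was at -0.0040 (median-ratio scaling), -0.022 (quantile normalization) and -0.060 to 0.12 (1 library left out), and HSPH1 at -0.38 to 0.23 (1 library left out). Under control siRNA, DNAJA1 was at -0.0095, -0.027 and -0.12 to 0.18 under the same settings, and HSPH1 at -0.021, -0.069 and -0.30 to 0.34. For the difference of knockdown effects, DNAJA1 was at 0.0055 (median-ratio scaling), 0.0050 (quantile normalization), 4.2e-05 (pseudocount 0.1) and -0.15 to 0.15, and DNAJB1 at 0.0038 (median-ratio scaling) and -0.023 to 0.019. With 1 library left out that difference ran from -0.031 to 0.049 for HSP90AB1, -1.11 to 0.33 for HSPB1 and -0.42 to 0.23 for HSPH1, and knockdown in the clones from -0.049 to 0.25 for DNAJA1 and -0.084 to 0.021 for HSPE1. The cause of these changes was not tested. The unknown number of fragments limits the precision of every value.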
